A study of Mus musculus with 6 samples.

Results

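The nuclear genes of cytochrome c oxidase that come in tissue-type isoforms were followed between WT and FHL3 KO C2C12 cells. They were 10 gene names fixed by symbol: Cox4i1, Cox4i2, Cox6a1, Cox6a2, Cox6b1, Cox7a1, Cox7a2, Cox7a2l, Cox8a and Cox8b. All 10 were in the table, each with 1 gene ID, among 55413 rows with an unrepeated ID. C2C12 is a line of mouse muscle precursor cells, which form multinucleate myotubes in low serum. All 6 libraries came from cells kept in 10% fetal bovine serum and then differentiated in 2% horse serum to day 4. The groups were WT (3 libraries) and FHL3 KO (3 libraries), a knockout of a LIM-domain protein of striated muscle, which the series title ties to fast glycolytic fibres and to the transcription factor YY1. The labels name neither the knockout allele nor a clone, and a clone effect cannot be told apart from the genotype. Separate cultures are not stated either, and each p-value refers to the spread among these libraries alone, possibly a technical one.

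Cytochrome c oxidase, or complex IV, is the last enzyme of the respiratory chain. It passes electrons from cytochrome c to oxygen and pumps protons across the inner mitochondrial membrane. Its catalytic core is encoded by the mitochondrial genome, and nuclear subunits surround the core. Several nuclear subunits have a heart and muscle type, which replaces the liver type in mature striated muscle: Cox6a2 for Cox6a1, Cox7a1 for Cox7a2 and Cox8b for Cox8a. Cox4i2 is the lung-type partner of the ubiquitous Cox4i1.

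The RNA of the targeted gene was higher in the libraries labelled FHL3 KO, and loss of the protein cannot be judged from RNA level. Fhl3 stood at 27.8, 30.03 and 33.7 FPKM (fragments normalized to gene length and library size, so that genes can be compared) for WT replicates 1 to 3. The replicates labelled FHL3 KO, hereafter KO-labelled, had 57.2, 53.5 and 58.9 FPKM, all higher than WT (limma adjusted p = 0.000547). No read counts were used, so depth is unknown. Correlations of log2 values ran from 0.977 to 0.991 between libraries of a group and from 0.93 to 0.959 between groups. Muscle differentiation markers moved with the groups: 15 of 16 were called higher, the other, Des, was not called, and their summed level was 8218 to 9382 FPKM in WT and 17360 to 18920 FPKM in the KO-labelled libraries. The part of this in the results below was not tested, and in bulk samples fewer cells of a type and less RNA per cell cannot be told apart. Proliferation and myoblast markers summed to 154.6 to 181.1 and 146.7 to 172.5 FPKM, with 4 called higher and 3 lower of 9 tested. By group means the lower ones were Myf5 (29.5 to 8.64 FPKM), Mki67 (6.92 to 3.17) and Top2a (36.5 to 21.5). The higher ones were Ccnb1 (18.54 to 29.75 FPKM), Mcm5 (13.7 to 20.25), Id1 (7.82 to 16) and Id3 (3.83 to 9.22), so the sum hides changes in both directions. Of 10 markers of brown adipocytes, another cell that uses the muscle-type oxidase subunits, Cidea, Adipoq and Plin1 were listed at 0 in all libraries and Ucp1 reached 0.03 FPKM in WT replicate 1 alone. The list summed to 12.55 to 15.99 and 9.13 to 10.1 FPKM, with 1 called higher and 2 lower of 3 tested. By group means Dio2 (8.23 to 2.26 FPKM) and Pparg (4.04 to 2.67) were lower and Cebpa (1.57 to 4.5) was higher. Of 10 cardiomyocyte markers Tbx5 was listed at 0 throughout, and their sums were 128.8 to 144.8 and 155.1 to 208.5 FPKM, with 2 called higher and 2 lower of 6 tested. WT replicate 1 held Nppa at 0.77, Myl7 at 0.32 and Ryr2 at 0.062 FPKM, where Nppa reached 0.18 FPKM in WT replicate 3 and the 3 were otherwise listed at 0. Myh6 was at 2.37 FPKM in WT replicate 1, 0.75 and 0.595 in WT replicates 2 and 3, and 13.5 to 20.3 FPKM in the KO-labelled libraries. Fibroblast and matrix markers, with Thy1 listed at 0 throughout, summed to 1761 to 2195 and 1253 to 1474 FPKM, with 4 of 8 tested called lower and 1 higher. Fn1, which was not called, was the largest part of these sums, at group means of 1288 and 1033 FPKM. By group means the 4 lower were Mmp2 (31.0 to 0.085 FPKM), Dcn (151.9 to 12.1), Postn (108.2 to 10.1) and Col3a1 (201.6 to 122.8). Col1a1 was higher (4.16 to 8.67 FPKM). For comparison, 19.7% of all genes tested were called higher and 21.2% lower. Liver transcripts were present in WT replicate 1, where 7 markers summed to 88.7 FPKM, with Alb at 56.0 FPKM, while each marker was at 0.022 FPKM or less in WT replicates 2 and 3 and all were listed at 0 in the KO-labelled libraries. The part of the liver and cardiac transcripts in the results was not tested. Without WT replicate 1, the log2 change of the muscle-type Cox6a2 was 0.86 (limma adjusted p = 0.0318, from 0.00144 to 0.0533 over all alternatives).

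Measured over the whole set, 3 of the 10 isoform genes rose in the KO-labelled libraries and 0 fell (limma; at an unadjusted p under 0.05, 3 were higher and 0 lower). The 3 were Cox6a2, the heart and muscle type of subunit 6a, Cox4i1, the ubiquitous subunit 4, and Cox7a2l, a relative of the 7a subunits that takes part in joining complex III to complex IV. Cox4i2 was listed at 0 FPKM in all 6 libraries and was not tested, so 9 members were tested and 6 were not called. The test was limma on log2(FPKM + 1) with p adjusted by Benjamini-Hochberg over 12528 genes and called under 0.05. In that comparison 40.8% of all genes tested were called, 19.7% higher and 21.2% lower, so the 3 of 9 called stood near the share called in either direction. Without Cox4i1, which lies on chromosome 8, where many genes were called higher, 2 of 8 tested members were called higher and 0 lower. That stood near the share of all genes called higher. The median log2 change of the 9 was 0.295, against -0.005 over all genes tested. The groups did not overlap for the same 3 members, all higher. Over all genes tested they did not overlap for 53.8% in either direction and for 26.9% higher.

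**Figure D1:**
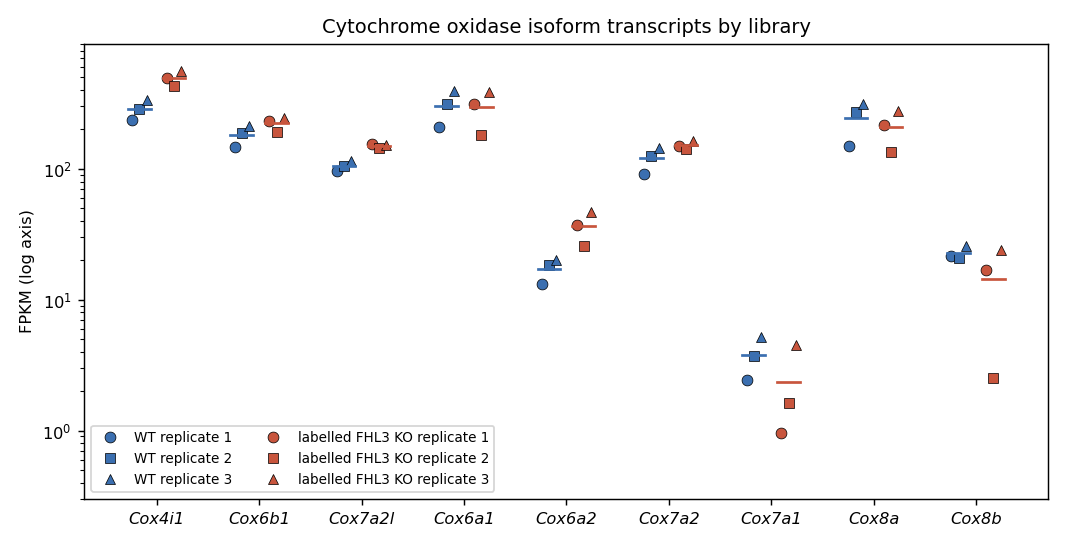
FPKM of the 9 detected isoform genes on a log axis, with a point per library and bars at the arithmetic mean of each group of 3. Cox4i1, Cox7a2l and Cox6a2 have every KO-labelled point above every WT point, and KO-labelled replicate 2 lies far below the others for Cox8b, at 2.54 FPKM.

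In level the liver and ubiquitous types dominated in both groups. Mean FPKM in WT ran from Cox6a1 (304.8), Cox4i1 (284.4) and Cox8a (245.4) through Cox6b1 (182.5), Cox7a2 (120.2) and Cox7a2l (105.2) to Cox8b (22.8), Cox6a2 (17.2) and Cox7a1 (3.77). The ranges of neighbours overlapped among the first 4 and between Cox7a2 and Cox7a2l, and did not overlap from Cox6b1 to Cox7a2, from Cox7a2l to Cox8b, from Cox8b to Cox6a2 or from Cox6a2 to Cox7a1. In the KO-labelled libraries Cox4i1 led at 497.7 FPKM and Cox6a2 (36.6) stood before Cox8b (14.4). Each muscle type was below its liver type in every library.

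Subunit 6a carried the largest rise among the members. Cox6a2 (ENSMUSG00000030785, chromosome 7, 128205435 to 128206387, GRCm38) measured 13.1, 18.4 and 20.1 FPKM across WT replicates 1 to 3, against 37.2, 25.8 and 46.7 FPKM across the KO-labelled replicates. The lowest KO-labelled library lay above the highest WT library. Mean levels were 17.2 ± 3.6 and 36.6 ± 10.4 FPKM (± SD here and below, n = 3 each), a log2 change of 1.03 (SE 0.23, 95% interval 0.50 to 1.56, limma adjusted p = 0.0106). With no minimum level required of genes, Cox6a2 was no longer called (limma adjusted p = 0.0533). The gene shares 70 exon bases with Itgad on the opposite strand, a leukocyte integrin listed at no more than 0.035 FPKM.

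Cox6a1, its liver-type partner (chromosome 5, 115345642 to 115348981), measured 209.4, 313.9 and 391 FPKM across WT replicates 1 to 3, against 315.5, 181.8 and 389.5 FPKM across the KO-labelled replicates. The groups overlapped widely, with WT replicate 1 and KO-labelled replicate 2 lowest. The log2 change was -0.07, with a 95% interval from -0.80 to 0.67 (limma adjusted p = 0.881), and its sign turned to 0.25 without KO-labelled replicate 2 and to 0.14 without WT replicate 3. It was -0.31 without WT replicate 1 and -0.34 after quantile normalization, and no alternative called it. The coding sequences of the pair are shown because the ratio of their levels rests on telling their reads apart. They are from GENCODE M21, whole for Cox6a2 and bases 1 to 300 for Cox6a1, with capitals on runs of at least 12 bases that both share.
Cox6a2: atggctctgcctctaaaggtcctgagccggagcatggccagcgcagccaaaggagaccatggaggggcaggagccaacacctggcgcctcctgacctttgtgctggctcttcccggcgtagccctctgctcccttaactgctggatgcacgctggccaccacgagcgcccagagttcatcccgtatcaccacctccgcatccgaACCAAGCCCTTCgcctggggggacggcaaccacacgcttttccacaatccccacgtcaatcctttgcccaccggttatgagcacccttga
Cox6a1: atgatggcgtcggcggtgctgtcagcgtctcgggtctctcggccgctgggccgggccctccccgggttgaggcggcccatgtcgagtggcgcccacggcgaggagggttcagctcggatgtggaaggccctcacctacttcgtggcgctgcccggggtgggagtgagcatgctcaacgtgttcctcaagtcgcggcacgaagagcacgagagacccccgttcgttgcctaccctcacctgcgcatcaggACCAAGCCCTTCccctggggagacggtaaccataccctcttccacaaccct
Aligned end to end, the whole coding sequences of 294 and 339 bases were 58.6% identical, and the longest run shared by the whole transcripts was 12 bases. No other transcript of the annotation matched Cox6a2 over 100 bases at 90% identity, while Cox6a1 had a copy, AC148174.2, at 92.9% identity over 496 bases and no more than 0.099 FPKM.

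Within each library, the Cox6a2 to Cox6a1 ratio was 0.063, 0.059 and 0.051 in WT replicates 1 to 3 and 0.118, 0.142 and 0.12 in the KO-labelled replicates. All KO-labelled ratios lay above all WT ratios, and KO-labelled replicate 2, which had the lowest level of both genes in its group, had the highest ratio. The fold between the geometric means was 2.2, a log2 difference of 1.14 with SDs of 0.15 in each group. The exact two-sided permutation p was 0.1, the smallest that 3 against 3 allows, and 0.3 after adjustment over the 3 pairs with a ratio. Leaving out any 1 library gave log2 differences of 1.05 to 1.20. Cox6a2 made up 5.44% ± 0.52 of the summed FPKM of the pair in WT and 11.2% ± 1.04 in the KO-labelled libraries, while the sum itself was 321.9 ± 94.6 and 332.2 ± 115.6 FPKM (exact permutation p = 0.8, also after adjustment over 4 subunit positions).

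**Figure D2:**
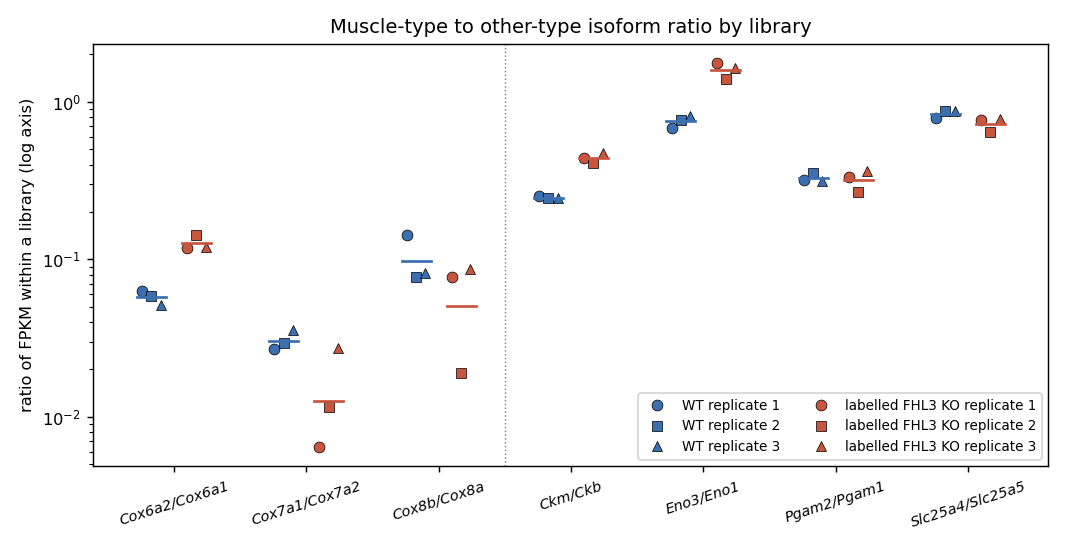
Ratio of FPKM within each library on a log axis, for the oxidase pairs left of the dotted line and for muscle to other isoform pairs of energy metabolism right of it, with bars at the geometric mean of each group of 3. The Cox6a2/Cox6a1 ratio is higher in every KO-labelled library, and the Cox7a1/Cox7a2 and Cox8b/Cox8a ratios overlap between the groups.

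The muscle types of subunits 7a and 8 were not called in either direction. Cox7a1 (ENSMUSG00000074218, chromosome 7, 30184144 to 30186078), the heart and muscle type of 7a, measured 2.44, 3.69 and 5.18 FPKM across WT replicates 1 to 3, against 0.95, 1.64 and 4.46 FPKM across the KO-labelled replicates. KO-labelled replicates 1 and 2 lay below all WT libraries and replicate 3 lay among them. The log2 change was -0.61 (95% interval -1.50 to 0.28, limma adjusted p = 0.234), and without KO-labelled replicate 3 it was -1.03 and was called (limma adjusted p = 0.0282, up to 0.57 over the alternatives). It was -0.29 without KO-labelled replicate 1 and -0.40 without WT replicate 3, neither called. The ratio to Cox7a2 was 0.027, 0.03 and 0.036 in WT and 0.0064, 0.012 and 0.027 in the KO-labelled libraries. Of these, KO-labelled replicate 3 overlapped with WT. The log2 difference of -1.27 had SDs of 0.21 and 1.05 (exact permutation p = 0.2, 0.3 adjusted over 3 pairs), and it was -1.82 without KO-labelled replicate 3, -0.78 without KO-labelled replicate 1 and -0.66 after quantile normalization. The liver type Cox7a2 measured 91.2, 124.7 and 144.8 FPKM across WT replicates 1 to 3, against 148.7, 140.7 and 163.7 FPKM across the KO-labelled replicates, with a log2 change of 0.35 (95% interval -0.03 to 0.73, limma adjusted p = 0.126). It was called without WT replicate 3 (log2 change 0.50, limma adjusted p = 0.0408, up to 0.287 over the alternatives). The change was 0.16 without WT replicate 1, 0.20 after quantile normalization and 0.21 without WT replicate 1 and KO-labelled replicate 2, none of them called.

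Cox8b (ENSMUSG00000025488, chromosome 7, 140898945 to 140900446), the heart and muscle type of subunit 8, measured 21.5, 20.9 and 25.9 FPKM across WT replicates 1 to 3, against 16.8, 2.54 and 23.9 FPKM across the KO-labelled replicates. KO-labelled replicate 2 was far below the rest, replicate 1 lay just below WT and replicate 3 lay among the WT values. The log2 change was -1.03 with a 95% interval from -2.52 to 0.47 (limma adjusted p = 0.234). It was -0.17 without KO-labelled replicate 2 and -1.58 without KO-labelled replicate 3, and was called under no alternative (limma adjusted p from 0.0865 to 0.47). Cox8a, the liver type, measured 150.2, 270.9 and 315.1 FPKM across WT replicates 1 to 3, against 216.5, 134.4 and 276 FPKM across the KO-labelled replicates, a log2 change of -0.22 (SE 0.33, limma adjusted p = 0.612) that turned to 0.06 without KO-labelled replicate 2, was -0.54 without WT replicate 1 and was called under no alternative. The Cox8b to Cox8a ratio was 0.143, 0.077 and 0.082 in WT and 0.078, 0.019 and 0.087 in the KO-labelled libraries. WT replicate 1 was high, KO-labelled replicate 2 was low, and the other 4 libraries lay close together. The log2 difference was -0.95 (exact permutation p = 0.5, also after adjustment over 3 pairs), -0.61 after quantile normalization, -0.67 without WT replicate 1, -0.24 without KO-labelled replicate 2 and 0.04 without both outlying libraries, a comparison of 2 against 2 chosen after seeing the data. The pairs Cox7a1/Cox7a2 and Cox8b/Cox8a were 62.8% and 57.4% identical in coding sequence, with longest shared runs of 12 and 10 bases between whole transcripts.

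RefSeq promoter sequence (GRCm38.p6) was matched for 7 of the 10 members, and not for Cox4i1, Cox4i2 and Cox6a2. The 250 bases before the RefSeq start of both muscle types that did not rise are shown with capitals on the E-box CANNTG, the site type of the myogenic factors, and of the liver-type Cox6a1 with capitals on TGCGCA, the core of the site of the respiratory gene factor NRF1, on a longer form of that site, and on CCGGAAG, a form of the ETS site. RefSeq places the start inside the GENCODE gene for Cox7a1 and Cox6a1, so that the last 27 and 23 bases of their windows lie within the gene bounds given here. Both strands were searched, and every sequence runs 5′ to 3′ on the gene's strand.
Cox7a1, plus strand, chr7:30183921-30184170: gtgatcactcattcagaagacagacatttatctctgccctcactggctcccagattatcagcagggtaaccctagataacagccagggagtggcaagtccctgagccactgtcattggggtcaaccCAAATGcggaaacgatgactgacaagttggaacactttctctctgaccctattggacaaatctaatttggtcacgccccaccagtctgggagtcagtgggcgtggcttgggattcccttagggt
Cox8b, minus strand, chr7:140900447-140900696: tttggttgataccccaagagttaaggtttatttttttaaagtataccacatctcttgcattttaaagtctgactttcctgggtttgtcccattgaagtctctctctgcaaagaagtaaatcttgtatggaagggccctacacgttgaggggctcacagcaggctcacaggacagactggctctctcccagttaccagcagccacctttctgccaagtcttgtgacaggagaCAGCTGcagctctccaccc
Cox6a1, minus strand, chr5:115348959-115349208: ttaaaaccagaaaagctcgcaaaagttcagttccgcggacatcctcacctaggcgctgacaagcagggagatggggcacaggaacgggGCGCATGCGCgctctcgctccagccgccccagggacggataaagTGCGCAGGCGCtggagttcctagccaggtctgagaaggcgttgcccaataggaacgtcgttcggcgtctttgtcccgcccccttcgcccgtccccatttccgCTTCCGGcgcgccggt
Cox7a1 and Cox8b each held 1 E-box and no match to the other motifs. The liver types Cox7a2 and Cox8a likewise held 1 E-box each and no other match. Cox7a2l held 1 E-box alone, and Cox6b1 held 2 with 1 match to CCGGAAG. E-boxes occurred in 66.2% of 32851 promoter windows of this length, TGCGCA in 6.4% and CCGGAAG in 6.9%. Cox6a1 held 1 match to TGCGCA, 1 to CCGGAAG and no E-box. The longer form of the NRF1 site, which was searched first, had 2 matches in the Cox6a1 window, 1 of them overlapping the TGCGCA match, and occurred in 3.7% of windows. The form AANATGGC of the YY1 site, present in 3.9% of windows, was in none of the 7 member windows. A match describes letters in the window and is not a measured binding site.

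Of the subunits with no heart and muscle type in the set, Cox4i1 and Cox7a2l rose and Cox6b1 was not called. Cox4i1 (ENSMUSG00000031818, chromosome 8, 120668222 to 120674207), the ubiquitous subunit 4 that is needed early in assembly of the enzyme, measured 234.3, 285.7 and 333.3 FPKM across WT replicates 1 to 3, against 498.6, 433.4 and 561.3 FPKM across the KO-labelled replicates. Every KO-labelled library exceeded every WT library. Its mean rose from 284.4 ± 49.5 to 497.7 ± 63.9 FPKM, a log2 change of 0.81 (SE 0.15, 95% interval 0.46 to 1.17, limma adjusted p = 0.00542), and it was called under all 15 alternatives tried (limma adjusted p from 0.00216 to 0.0303). Genes on its chromosome moved with the groups: 51.5% of 676 tested genes of chromosome 8 were called higher and 7.4% lower, with a median log2 change of 0.371, whereas 10.5% to 24.7% were called higher on each other chromosome that was counted (1 to 19 and X), with medians from -0.19 to 0.072. The part of this in the Cox4i1 value was not tested. Cox4i1 shares 154 exon bases with Emc8 on the opposite strand, whose level was 8.56 ± 0.76 and 10.9 ± 1.1 FPKM, far below that of Cox4i1.

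Cox7a2l (ENSMUSG00000024248, chromosome 17, 83501918 to 83517330) measured 96.3, 105.3 and 113.9 FPKM across WT replicates 1 to 3, against 155.6, 143.4 and 152.2 FPKM across the KO-labelled replicates. The groups were apart, and the replicates were the tightest among the members relative to their mean. The means were 105.2 ± 8.8 and 150.4 ± 6.3 FPKM, a log2 change of 0.51 (SE 0.09, limma adjusted p = 0.00369), called under all 15 alternatives (limma adjusted p from 0.00195 to 0.0214). The value is uncertain in 1 respect: the first 201 coding bases of Cox7a2l, from position 56 of its transcript, are identical to the processed pseudogene Gm6969 on chromosome 12. The labels do not say to which of them shared reads were given. Gm6969 measured 100.3, 144.6 and 159 FPKM across WT replicates 1 to 3, against 168.9, 114 and 203.7 FPKM across the KO-labelled replicates, overlapping between the groups (log2 change 0.25, limma adjusted p = 0.425).

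Cox6b1, the intermembrane-space subunit near the cytochrome c binding side, measured 147.3, 188.5 and 211.8 FPKM across WT replicates 1 to 3, against 232.2, 190.3 and 246.5 FPKM across the KO-labelled replicates. KO-labelled replicate 2 lay among the WT values. The log2 change was 0.29 (95% interval -0.07 to 0.66, limma adjusted p = 0.166). It was 0.15 without WT replicate 1, 0.11 after quantile normalization and 0.19 after scaling to the same sum, and no alternative called it.

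WT replicate 1 was the lowest WT library for 8 of the 9 detected members, the exception being Cox8b, and KO-labelled replicate 2 the lowest of its group for 8 of 9, the exception being Cox7a1. The median log2 deviation of the members from their group mean was -0.342 in WT replicate 1 and -0.219 in KO-labelled replicate 2, and 0.383 in KO-labelled replicate 3, the largest of the other 4. Short transcripts deviated less in these 3 libraries: over 1148 tested genes with under 1000 exon bases the same median was -0.091 in WT replicate 1 and -0.13 in KO-labelled replicate 2. It was 0.029 in KO-labelled replicate 3 and between 0.015 and 0.102 over the other 4 libraries. Removing each library's trend with exon length and GC content gave the same 3 member calls, as did leaving out both libraries together. Under the length and GC correction the log2 changes were 0.61 for Cox4i1, 0.95 for Cox6a2 and 0.43 for Cox7a2l. In each of those fits Cox7a1 and Cox8b were not called.

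**Figure D3:**
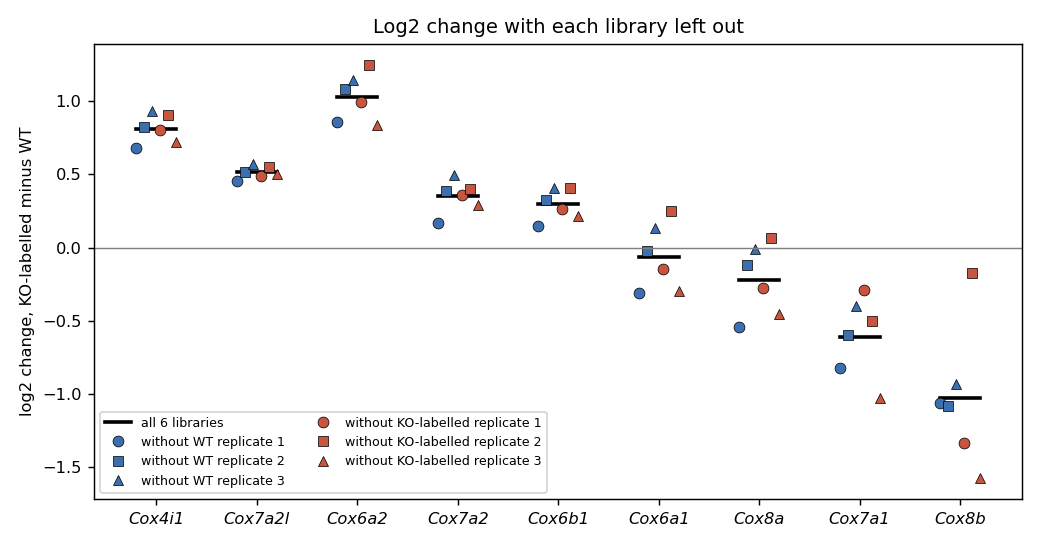
Log2 change of FPKM + 1 for each member with all 6 libraries (black bar) and with each library left out (points). Cox4i1, Cox7a2l and Cox6a2 stay above 0.45 throughout, while Cox8b moves from -1.03 to -0.17 when KO-labelled replicate 2 is left out.

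Among the rest of complex IV, called nuclear subunits were higher and called mitochondrial ones lower. Of 10 other nuclear subunits, 6 were tested and 2 rose: Cox5a, a matrix-side subunit, from 124.2 ± 12.3 to 199.2 ± 17.2 FPKM (limma adjusted p = 0.00265), and Cox7c from 102.4 ± 18.4 to 165.5 ± 28.6 FPKM (limma adjusted p = 0.0132). Their median log2 change was 0.337, and 0 fell (limma, with 0 lower also at an unadjusted p under 0.05). Over all genes tested 19.7% were called higher and 21.2% lower. Ndufa4, which was first assigned to complex I, was at 189.8 ± 33.2 and 245.4 ± 45.4 FPKM and Cox7b at 70.8 ± 13.2 and 88.3 ± 20.7 FPKM, neither called. Of the 3 subunits of the mitochondrially encoded core 2 fell. The catalytic subunit mt-Co1 fell from 9141 ± 198.3 to 6376 ± 1164 FPKM (limma adjusted p = 0.0492) and mt-Co2, which receives electrons from cytochrome c, from 3107 ± 193.7 to 1861 ± 400.3 FPKM (limma adjusted p = 0.0118), while mt-Co3 was at 2577 ± 151.3 and 2246 ± 563 FPKM (limma adjusted p = 0.361). The 2 calls became 0 after length and GC correction. With 1 library left out they became 0 without WT replicate 2 or KO-labelled replicate 1, 1 without WT replicate 1, WT replicate 3 or KO-labelled replicate 3, and 3 without KO-labelled replicate 2. Mitochondrial transcripts made up 8.56% to 8.82% of all FPKM in WT and 3.98% to 6.18% in the KO-labelled libraries.

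**Figure D4:**
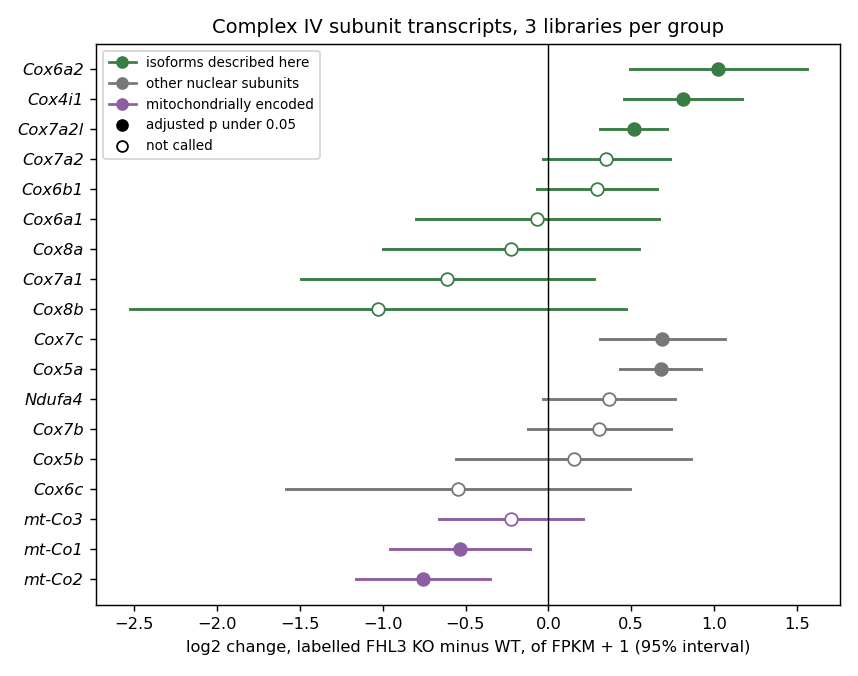
Log2 change of FPKM + 1 with its 95% interval from limma for the 9 tested isoform genes, 6 other nuclear subunits and 3 mitochondrially encoded subunits, with filled points where the adjusted p was under 0.05. Calls among the nuclear subunits are all to the right of 0 and calls among the mitochondrially encoded ones to the left, and Cox8b has the widest interval, from -2.52 to 0.47.

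Set against Cox4i1 within each library, mt-Co1 stood at 38.6, 31.5 and 28.1 times its FPKM in WT and at 11.9, 17.8 and 9.78 times in the KO-labelled libraries. All KO-labelled ratios were lower, with a log2 difference of -1.35 (exact permutation p = 0.1, the smallest possible). This order was set beforehand, because mt-Co1 and mt-Co2 were each lower, and Cox4i1 higher, in every KO-labelled library. The p-value therefore adds no support, and the part of chromosome 8 in the Cox4i1 value was not tested. For mt-Co2 the ratios were 12.4, 11 and 9.85 against 3.58, 5.29 and 2.68.

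Of 27 assembly factors, which insert heme and copper and stabilise the core, 26 were tested, 6 rose and 0 fell by limma. Over all genes tested 19.7% were called higher and 21.2% lower, so the 6 of 26 stood near the share called higher. The median log2 change of the factors was 0.17. At an unadjusted p under 0.05, 8 were higher and 2 lower, and after scaling to the same sum 4 were called higher and 2 lower. Without WT replicate 1 the calls were 3 higher and 2 lower, and after length or length and GC correction 7 higher and 2 lower. They were 6 higher and 1 lower after median-of-ratios scaling and without KO-labelled replicate 2. The 6 were Coa8 (23.2 ± 0.90 to 32.6 ± 1.6 FPKM), Coa6 (10.3 ± 1.1 to 14.5 ± 1.4 FPKM), the heme A synthase Cox15 (5.76 ± 0.50 to 7.71 ± 0.34 FPKM), the copper-pathway Cox19 (18.2 ± 1.04 to 22.6 ± 1.08 FPKM), Cmc2 and Higd1a. Coa6 and Cmc2 lie on chromosome 8, and without the 3 tested factors of that chromosome 4 of 23 rose. The count fell to 2 without WT replicate 2 or without KO-labelled replicate 3, and to 3 without KO-labelled replicate 1.

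Of 16 regulators tied to the oxidase isoforms, 14 were tested. Of the 14 regulators, 4 rose and 3 fell, where 19.7% of all genes tested were called higher and 21.2% lower. After scaling to the same sum, and likewise without WT replicate 2, 2 were called higher and 3 lower. The largest rise was in Myog, a myogenic factor of terminal differentiation, which went from 250.1 ± 46.5 to 916.8 ± 95.8 FPKM (limma adjusted p = 0.000193). The muscle transcription factor Mef2d rose from 55.6 ± 3.7 to 85.1 ± 12.5 FPKM (limma adjusted p = 0.0066). Gabpa, an ETS-family activator of respiratory genes, fell from 17.8 ± 2.2 to 9.70 ± 0.65 FPKM (limma adjusted p = 0.00144), and Tfb2m, a mitochondrial transcription factor, from 13.1 ± 0.74 to 9.17 ± 0.86 FPKM (limma adjusted p = 0.00813). The coactivator Ppargc1a and the receptor Esrrg were under the filter, at no more than 0.284 and 0.092 FPKM in any library.

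Muscle to other isoform pairs elsewhere in energy metabolism were compared in the same way. The ratio of creatine kinases Ckm to Ckb was 0.247 ± 0.004 in WT and 0.442 ± 0.032 in the KO-labelled libraries, and that of enolases Eno3 to Eno1 0.756 ± 0.067 and 1.6 ± 0.18, both higher in every KO-labelled library. For the phosphoglycerate mutases Pgam2 and Pgam1 the ratios were 0.329 ± 0.022 and 0.322 ± 0.049. For the adenine nucleotide carriers Slc25a4 and Slc25a5 they were 0.844 ± 0.051 and 0.731 ± 0.074, with the ratio lower in every KO-labelled library. The exact permutation p values were 0.1, 0.1, 0.9 and 0.1 (0.133, 0.133, 0.9 and 0.133 adjusted over these 4 pairs). The log2 differences of Eno3/Eno1 (1.08) and Ckm/Ckb (0.84) stood beside 1.14 for Cox6a2/Cox6a1. In level, Ckm (94.9 to 161.2 FPKM) and Eno3 (426.1 to 869.6 FPKM) were called higher, while Ckb, Eno1, Pgam2 and Pgam1 were not called. Slc25a4 did not fall: its mean was 132.6 FPKM in WT and 178.2 FPKM in the KO-labelled libraries (limma adjusted p = 0.0844). Its partner Slc25a5 was called higher, from 156.3 to 242.9 FPKM (limma adjusted p = 0.00548). Slc25a4 lies on chromosome 8, and near-identical copies of these 8 genes were not searched for. Whether the ratios of different pairs moved by different amounts was not tested.

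The genes whose profile over the 6 libraries lay nearest to each called member were found by the Euclidean distance between centred log2(FPKM + 1) values, among 9018 genes with a group mean of at least 5 FPKM. For Cox6a2 they were the complex I subunit Ndufa13 (distance 0.233), a gene of chromosome 8, Mustn1 (0.237) and Pacsin3 (0.252). For Cox4i1 they were Ccdc124 (0.091) and Ssbp4 (0.103), both on chromosome 8, and Trim72 (0.108), a muscle membrane repair gene. For Cox7a2l they were Adrm1 (0.059), Mtarc2 (0.071) and Ccdc115 (0.073).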

How the data were processed

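RNA-seq of 6 libraries, 3 WT and 3 labelled FHL3 KO at day 4, was grouped by sample title. The submitters' processing notes name the build mm10 and, with no role or order, DESeq2 1.28.1, featureCounts 2.0.1, HISAT2 2.2.1 and Trim Galore 0.6.6. The deposited table holds FPKM made by the authors, a unit inferred from the values because the file headers name only genes and samples. No source used here gives the strand setting, the handling of shared reads or the depth, and no counting interval is printed.

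Of 55420 rows, 7 with repeated gene IDs were left out. Gene IDs were matched to GENCODE M21 (94.1% of all, 99.7% of those tested) for position, exon length and GC content. Genes reaching a group mean of 1 FPKM or more were fitted as log2(FPKM + 1), a scale that understates the change of low genes, with limma 3.58.1 in R 4.3.3 (mean-variance trend, two-sided, no covariates, Benjamini-Hochberg threshold of 0.05). Ratios used FPKM without a pseudocount and exact permutation. Coding sequences were aligned with Biopython 1.88 and transcripts searched with BLAST 2.17.0 (at least 90% identity over 100 bases).

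The fits were repeated with no filter, with a pseudocount of 0.1, with median-of-ratios, sum or quantile scaling, with removal of length or length and GC trends (splines with 5 degrees of freedom), with the replicate number as a block, at a threshold of 0.01 and with libraries left out. Leaving out WT replicate 1 with KO-labelled replicate 2, and the promoter motifs, were chosen after seeing the data. The steps were tested on simulated data. The members, lists and tests were chosen with earlier results of these data known. Named were all members, the 4 genes with the smallest p of each list of complex IV genes and regulators, the comparison pairs and the 3 nearest profiles of each called member. Alb, Ucp1, Nppa, Myl7, Ryr2, Myh6, Des, Cmc2, Higd1a, Emc8, Itgad, Gm6969, Ppargc1a, Esrrg and marker genes listed at 0 were named after their values were seen. So were Fn1 and the called genes of the fibroblast, myoblast and brown adipocyte lists.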

Additional observations from a re-analysis of the deposited data

How the results depend on the processing

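The calls of Cox4i1 and Cox7a2l held under every alternative run, and 2 to 4 members were called across them. Cox6a2 lost its call without a filter, where 27681 genes were tested, and at a threshold of 0.01. The labels do not state whether the replicate numbers pair the samples. Same-numbered libraries correlated at -0.127, -0.063 and 0.316 in their deviations from the group means, too few values to settle pairing. With the replicate block 4759 genes were called against 5112, and Cox7a1 was called lower (log2 change -0.61, limma adjusted p = 0.0352), so that 4 members were called. The mean within-number log2 differences of the ratios equal the differences of group means by arithmetic. They were 1.14, -1.27 and -0.95 for Cox6a2/Cox6a1, Cox7a1/Cox7a2 and Cox8b/Cox8a. The KO-labelled ratio was the higher one at 3, 0 and 1 of the 3 numbers.

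All genes called were 2695 at a threshold of 0.01 and 3272 to 5273 with a library left out, lowest without WT replicate 2. Scaling to the same sum moved the median log2 change of all genes to -0.104 and the share of higher calls from 48.2% to 36.1%, with the same number of member calls, 3. Of the other nuclear subunits 1 was called without a filter and 4 after length and GC correction. Of the mitochondrially encoded subunits 0 were called without a filter and after length and GC correction, 1 after quantile normalization, median-of-ratios scaling and with the replicate block, and 0 to 3 with a library left out. Of the assembly factors 2 to 7 were called with a library left out. Of the regulators 5 to 8 were called over all alternatives. The log2 difference of Cox6a2/Cox6a1 was 1.32 after quantile normalization, and that of Cox8b/Cox8a was 0.04 without WT replicate 1 and KO-labelled replicate 2. The log2 change of Cox6a1, -0.07 with all libraries, ran from -0.31 to 0.25 with 1 library left out (0.14 without WT replicate 3) and was 0.001 with WT replicate 1 and KO-labelled replicate 2 both left out. That of Cox8a ran from -0.54 to 0.062 with 1 library left out, highest without KO-labelled replicate 2. The cause of these changes was not tested. DESeq2 was not run because the table holds no counts, and no Cox4i2 ratio could be formed because it was listed at 0.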
